A study of Mus musculus with 2 samples.

Results

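The genes described here are 10 markers of the ovarian surface epithelium, chosen by gene symbol: the uroplakins Upk3b and Upk1b, mesothelin (Msln), mucin 16 (Muc16), the keratins Krt7, Krt8, Krt18 and Krt19, the leucine-rich repeat protein gene Lrrn4 and E-cadherin (Cdh1). The count table held a row for 9 of the 10 among its 24421 gene rows. Muc16 matched none of them and was not analysed here. The table came from 2 libraries made from whole-ovary total RNA after removal of ribosomal RNA. One library was labelled wild type and the other H19KO, with the allele given as H19(Δ3), and both were labelled C57BL/6J and 8 weeks old. H19 is an imprinted long noncoding RNA, and the Δ3 allele is known as a germline deletion of its transcription unit. How many animals or ovaries each library holds is not given in the sources used here.

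The surface epithelium is a single layer of flat to cuboidal cells that covers the ovary and continues into the mesothelium of the body cavity. It is broken at each ovulation and closes again over the wound. It shares with mesothelium the uroplakins Upk1b and Upk3b, mesothelin and Lrrn4, and it carries the keratins of simple epithelia. Keratin filaments are built from pairs of a type II keratin (Krt7, Krt8) and a type I keratin (Krt18, Krt19). Keratins and E-cadherin are not confined to this layer, and other epithelia such as that of the oviduct make them too. The markers therefore differ in how closely they point to the surface layer. Which other cells of the ovary add to their counts was not tested.

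The 4 promoter windows below are shown for Upk3b, the marker with the largest difference between the libraries, and for 3 keratins, of which 2 had the smallest differences. Each runs 5′ to 3′ from 250 bases before to 50 bases after the gene's RefSeq start on the GRCm38.p6 build, on the gene's own strand. Capitals mark matches on either strand. The motifs were CAGGTG, the E-box that the Snail and Zeb repressors of Cdh1 bind. They were also GGGCGG, which is known as the GC box, and GGAATG, a sequence that TEAD factors bind. The last was TATAAA, the TATA box.
Upk3b (chr5:136038246-136038545, plus strand): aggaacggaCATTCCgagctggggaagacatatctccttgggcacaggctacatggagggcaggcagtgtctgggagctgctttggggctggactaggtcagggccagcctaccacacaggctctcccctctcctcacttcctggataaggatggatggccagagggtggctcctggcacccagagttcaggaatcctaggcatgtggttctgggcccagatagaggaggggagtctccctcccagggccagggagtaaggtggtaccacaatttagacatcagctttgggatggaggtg
Krt7 (chr15:101412153-101412452, plus strand): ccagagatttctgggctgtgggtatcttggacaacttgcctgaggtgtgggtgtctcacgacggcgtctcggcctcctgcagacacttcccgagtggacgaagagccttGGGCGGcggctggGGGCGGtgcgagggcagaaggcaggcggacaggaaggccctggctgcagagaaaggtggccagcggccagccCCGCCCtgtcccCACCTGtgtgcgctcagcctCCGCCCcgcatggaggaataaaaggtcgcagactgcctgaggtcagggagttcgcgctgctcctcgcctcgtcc
Krt8 (chr15:102004293-102004592, minus strand): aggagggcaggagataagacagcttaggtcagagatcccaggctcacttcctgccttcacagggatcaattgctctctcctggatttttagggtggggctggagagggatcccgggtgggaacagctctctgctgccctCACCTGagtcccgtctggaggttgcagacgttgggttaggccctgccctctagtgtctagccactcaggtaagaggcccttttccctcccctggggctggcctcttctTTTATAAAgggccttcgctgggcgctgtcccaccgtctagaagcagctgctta
Krt18 (chr15:102027966-102028265, plus strand): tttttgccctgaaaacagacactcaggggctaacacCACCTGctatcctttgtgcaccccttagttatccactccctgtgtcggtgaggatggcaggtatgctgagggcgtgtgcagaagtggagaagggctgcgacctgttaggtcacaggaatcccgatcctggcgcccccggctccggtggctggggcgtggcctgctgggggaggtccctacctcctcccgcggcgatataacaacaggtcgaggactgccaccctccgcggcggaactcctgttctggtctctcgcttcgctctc

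RefSeq windows were matched for 6 genes, the 4 above with Lrrn4 and Muc16. Upk1b, Msln, Krt19 and Cdh1 had no entry. The E-box letters occurred in the windows of all 3 matched keratin genes, 44 bases upstream of the start in Krt7, 111 in Krt8 and 214 in Krt18, and in 20.2% of the 32851 mouse promoter windows of this length. The TEAD letters occurred in Upk3b, 241 bases upstream, and in Lrrn4, 196 bases upstream, and in 14.7% of all windows. GC boxes were found in Krt7 at 4 places, and 35.7% of all windows held at least 1. TATAAA lay across the RefSeq start of Krt8, where its matches on the 2 strands overlap, and occurred in 13.6% of all windows. Neither TGANTCA, which AP-1 binds, nor GCGTGGG, which WT1 and EGR1 bind, was found in any of the 6 windows, against 7.81% and 5.04% of all windows. These are matches of letters and say nothing of binding.

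Total counts were 23335131 for the wild-type library and 23041225 for the knockout, and H19, with 672 wild-type counts and none in the knockout, matched the labels. With 1 library per genotype there is no replicate check and no test between genotypes. Levels are CPM, the count divided by the TMM-scaled library size and multiplied by 1e6, and each ratio of knockout to wild type has a 95% exact binomial (Clopper-Pearson) interval, given in parentheses. These intervals cover counting error only, and each comparison describes these 2 libraries. Where a gene has a pair of counts or levels, the wild type comes first.

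All 9 measured markers had a higher level in the knockout library, by 4.75% to 53.8%. Upk3b, Krt19 and Upk1b differed most, and Krt18 and Krt7 least. The interval lay wholly above a ratio of 1 for 6 of the 9, wholly below it for none, and spanned it for 3. Across the 13928 genes that averaged 1 CPM or more, 22.2% had their interval wholly above 1 and 24% wholly below. Among the 4400 genes within the markers' own range of mean level, 6.69 to 31.4 CPM, these shares were 19% and 21%. The median log2 ratio of the 9 was 0.25, where that of all 13928 genes was -0.01, and 47.9% of all genes had a point ratio above 1. The differences were small in size. At a stricter limit, a log2 ratio of 0.32, the whole interval lay above for Upk3b alone, as it did for 4.2% of all genes, while 3.42% lay beyond the same limit on the lower side. No marker had an interval beyond 2-fold, as 0.61% of all genes had above and 0.388% below.

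**Figure D1:**
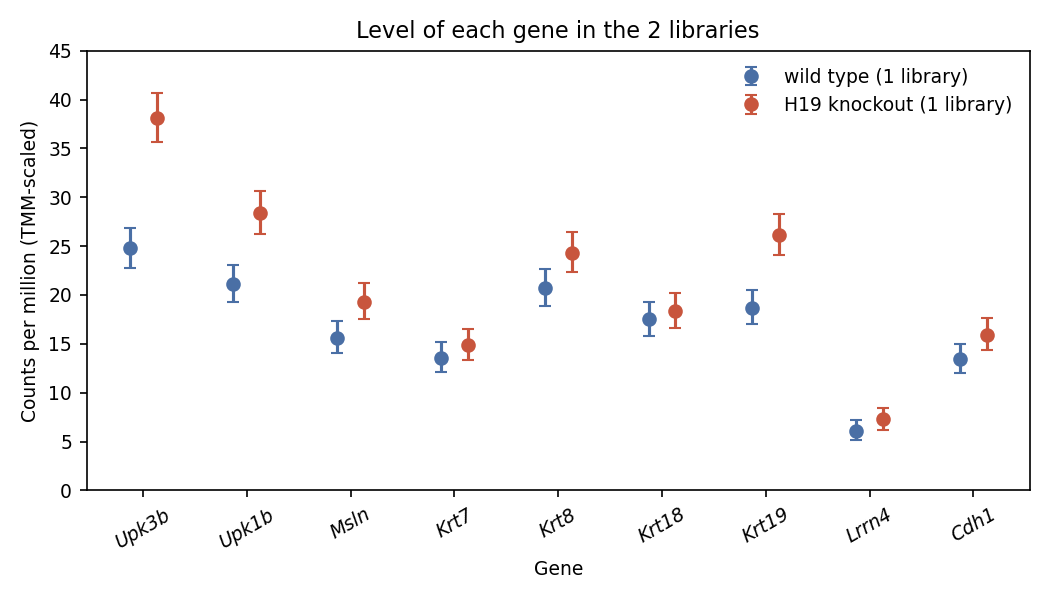
Level of each of the 9 measured genes in CPM (vertical axis, from 0) in the wild-type library (blue) and the H19 knockout library (red), 1 library each, with 95% exact Poisson intervals for counting error. The red point is above the blue point for every gene, and the bars are apart for Upk3b, Upk1b, Msln and Krt19.

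Summed over the 9 genes, the wild-type library held 3524 counts, or 151.6 CPM (146.6 to 156.6, exact Poisson interval), and the knockout library 4454, or 192.6 CPM (187.0 to 198.4). The knockout sum was 1.27-fold higher (1.22 to 1.33). Without Upk3b, which had the most counts of the 9, it was 1.22-fold higher (1.16 to 1.28), and without either uroplakin 1.19-fold (1.13 to 1.26). In RNA from whole ovaries, more cells of a type and more RNA per cell cannot be told apart.

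The uroplakins had the largest summed difference among the roles. Upk1b is a tetraspanin, and its partner Upk3b is a single-pass membrane protein. In the bladder lining, Upk1b pairs with a uroplakin of the Upk3 type to form the plaques of the apical membrane. Upk3b (mm10 chr5:136038496-136046487, plus strand) had 576 wild-type and 881 knockout counts, or 24.8 and 38.1 CPM. Its log2 ratio was 0.62 (0.47 to 0.78), 1.54-fold higher, and 4.04% of genes of at least 1 CPM had a higher ratio. Upk1b (chr16:38773184-38800328, minus strand) had 492 and 656 counts, or 21.2 and 28.4 CPM, a log2 ratio of 0.42 (0.25 to 0.59). For both genes the Poisson intervals of the 2 levels did not overlap. Together they were 1.45-fold higher (1.34 to 1.57). The ratio of Upk3b divided by that of Upk1b was 1.15 (0.98 to 1.35), so these counts did not separate the 2 genes' ratios.

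The other uroplakin genes were nearly silent, so the uroplakin counts of these ovaries were those of this pair. Upk1a had 10 and 8 counts, Upk2 1 and 3, Upk3a 1 and 2, and Upk3bl, the neighbour of Upk3b 8.00 kb downstream, 3 and 2. Summed, they had 15 counts in each library, and none reached 1 CPM.

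Mesothelin is a protein held on the cell surface by a lipid anchor and binds mucin 16, the CA125 antigen. Msln (chr17:25748613-25754378, minus strand) had 363 wild-type and 447 knockout counts, or 15.6 and 19.3 CPM. Its log2 ratio of 0.31 (0.11 to 0.51) lay above 0, and 11.9% of all genes had a higher one. With Muc16 not analysed here, the transmembrane mucins had 1 gene of at least 1 CPM, Muc1, with 50 and 73 counts, giving a log2 ratio of 0.55 (0.02 to 1.10). The others listed, Muc4, Muc13, Muc15 and Muc20, had 4 and 27, 8 and 13, 1 and 2, and 3 and 11 counts.

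**Figure D2:**
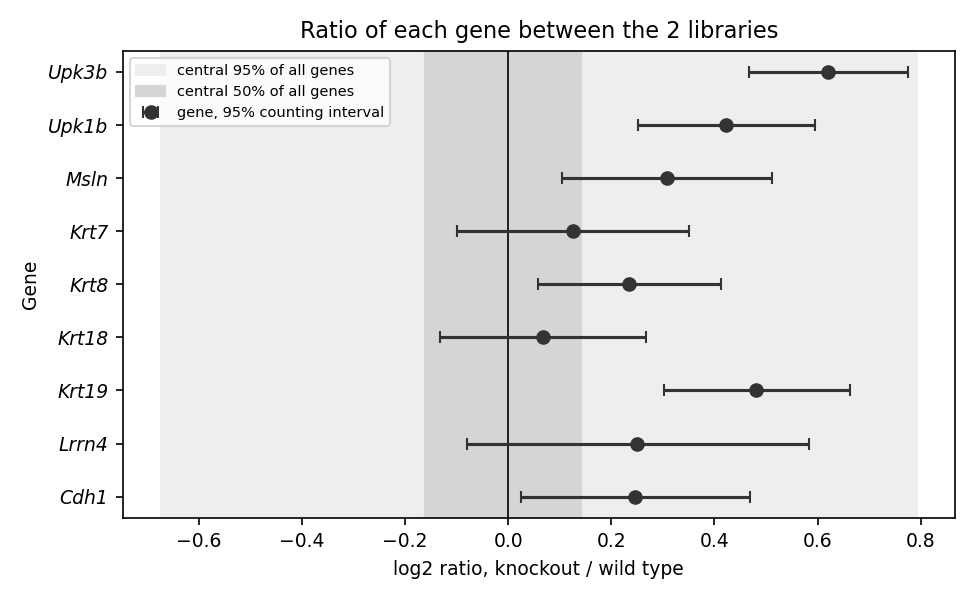
Log2 ratio of knockout to wild type (horizontal axis) for the 9 measured genes (points), with 95% exact binomial intervals for counting error (bars). The shaded bands hold the central 50% and 95% of the 13928 genes of at least 1 CPM, and all 9 points lie to the right of 0 and inside the wider band, from 0.07 for Krt18 to 0.62 for Upk3b.

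The 4 keratins did not share a single ratio. Krt19 (chr11:100140810-100148665, minus strand), the smallest keratin and one without a tail domain, had 435 wild-type and 604 knockout counts, or 18.7 and 26.1 CPM. Its log2 ratio was 0.48 (0.30 to 0.66). Krt8 (chr15:101996698-102004482, minus strand), the main type II keratin of simple epithelia, had 481 and 563 counts, or 20.7 and 24.3 CPM, and a log2 ratio of 0.23 (0.06 to 0.41). Its usual partner Krt18 (chr15:102028180-102032027, plus strand), which lies 23.7 kb from it, had 407 and 424 counts, or 17.5 and 18.3 CPM. At 0.07 (-0.13 to 0.27), the log2 ratio of Krt18 was not separated from 0 at this depth, nor was that of Krt7 (chr15:101411043-101430313, plus strand). Krt7, a type II keratin of ducts and mesothelium, had 316 and 343 counts, or 13.6 and 14.8 CPM, and a log2 ratio of 0.13 (-0.10 to 0.35).

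Direct comparison of the keratins' ratios, which does not depend on library scaling, set Krt19 apart from 2 of the others. The ratio of Krt18 divided by that of Krt19 was 0.75 (0.62 to 0.91), and for Krt7 over Krt19 it was 0.78 (0.64 to 0.96). For Krt8 over Krt19 it was 0.84 (0.71 to 1.01), and for Krt8 over its partner Krt18 it was 1.12 (0.93 to 1.35). Krt19 made up 26.5% of the 4 keratins' counts in the wild type (24.4 to 28.7, exact binomial interval) and 31.2% in the knockout (29.2 to 33.3). Krt18 made up 24.8% (22.8 to 27.0) and 21.9% (20.1 to 23.8), and Krt8 29.3% and 29.1%. By keratin type, the 2 type I genes were 1.23-fold higher (1.12 to 1.35) and the 2 type II genes 1.14-fold (1.04 to 1.26). Those 2 ratios differed by a factor of 1.07 (0.94 to 1.23). Krt7 overlaps the antisense gene Gm671 and Krt8 the lincRNA gene Gm36026, in both cases by exons on the opposite strand. No source used here gives the strand setting of the counting, and reads of these pairs cannot be told apart.

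Of 16 other keratin genes listed, 2 reached 1 CPM. Krt10, a keratin of maturing epidermis, had 101 and 83 counts, which gave a log2 ratio of -0.27 (-0.71 to 0.16), and Krt20, a keratin of gut and bladder lining, had 37 and 18, a log2 ratio of -1.01 (-1.93 to -0.18). The basal keratins Krt5 and Krt14 had 1 and 1, and 4 and 6 counts. Krt17 had 2 and 11 counts and Krt23 1 and 8, both below 1 CPM. Their log2 intervals lay above 0 but were wide (0.27 to 5.68 and 0.11 to 8.48). Summed, the 16 had 195 and 169 counts, against 1639 and 1934 for Krt7, Krt8, Krt18 and Krt19.

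The adhesion genes had nearly equal ratios. Cdh1 (chr8:106603351-106670246, plus strand) encodes the calcium-dependent adhesion protein of epithelial junctions. It had 312 wild-type and 368 knockout counts, or 13.4 and 15.9 CPM, and its log2 ratio was 0.25 (0.02 to 0.47), with the lower bound close to 0. Lrrn4 (chr2:132868305-132880891, minus strand), a membrane protein with leucine-rich repeats, had the fewest counts of the 9. Its 142 and 168 counts, or 6.11 and 7.27 CPM, gave a log2 ratio of 0.25 (-0.08 to 0.58), with a wider interval that spanned 0. Summed, the pair was 1.19-fold higher (1.05 to 1.35).

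Among all 36 pairs of the 9 genes, the interval of one gene's ratio divided by the other's left out 1 in 10 pairs, of which 6 involved Upk3b. These intervals were not adjusted for the number of pairs, and the same share over pairs of other genes was not computed. For single genes within the markers' range of mean level, 19% had an interval wholly above a ratio of 1 and 21% wholly below. The ratio of Upk3b exceeded that of Krt18 by a factor of 1.47 (1.23 to 1.75), of Krt7 by 1.41 (1.17 to 1.70), of Krt8 by 1.31 (1.11 to 1.54) and of Msln by 1.24 (1.04 to 1.48). It was 1.10 (0.93 to 1.30) against Krt19. As groups, the uroplakins' ratio was 1.22 times that of the keratins (1.10 to 1.35). Upk3b accordingly made up 16.3% of the 9 genes' counts in the wild type (15.1 to 17.6) and 19.8% in the knockout (18.6 to 21.0).

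**Figure D3:**
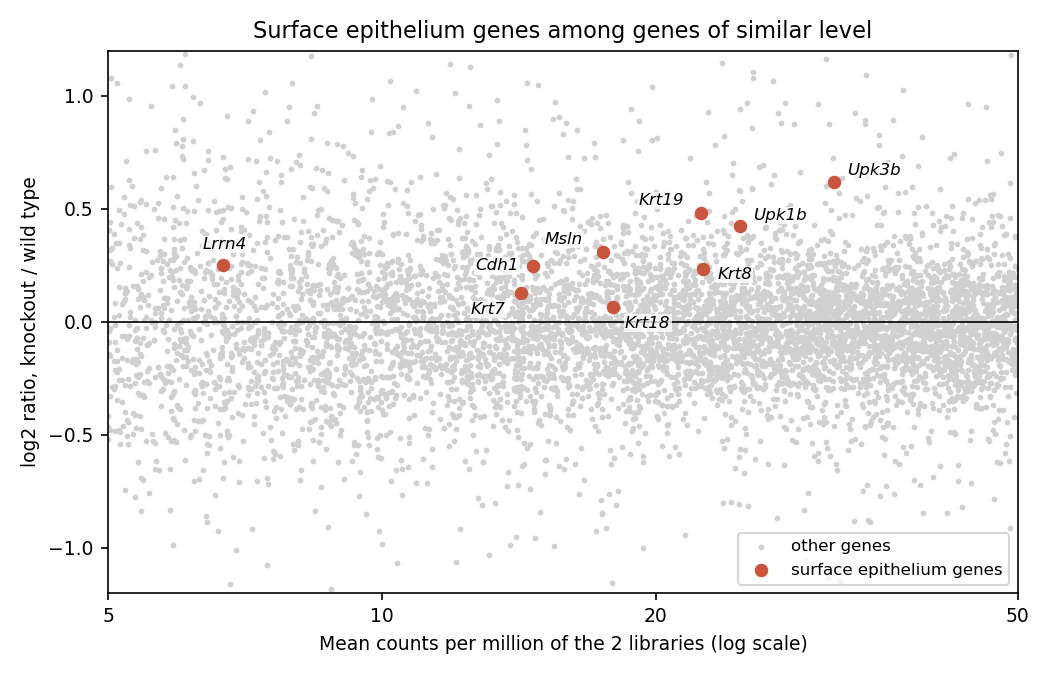
Log2 ratio of knockout to wild type (vertical axis) against the mean level of the 2 libraries in CPM (horizontal axis, log scale) for 6659 genes between 5 and 50 CPM, with the 9 surface epithelium genes in red. A further 84 genes lie beyond the drawn limits of 1.2 in either direction; the 9 red points lie above 0, within the spread of other genes of similar level.

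Per length, Krt8, Krt18, Krt19 and Upk1b were the highest of the 9 in both libraries, and Cdh1, Krt7 and Lrrn4 the lowest. CPM per kilobase of annotated exons in the wild type was 12.2 for Krt18, 10.6 for Krt8, 10.1 for Upk1b and 10.1 for Krt19. Krt18 stood 1.15 times above Krt8 (1.01 to 1.32, binomial interval of the ratio), whereas the intervals for Krt8 over Upk1b (0.92 to 1.19) and Upk1b over Krt19 (0.88 to 1.15) spanned 1. Upk3b had 7.02 and Msln 5.10 per kilobase. Cdh1, Krt7 and Lrrn4 had 2.93, 1.93 and 1.64, and the interval for Krt7 over Lrrn4 (0.96 to 1.44) spanned 1. In the knockout, Krt19 was first at 14.1 per kilobase, followed by Upk1b at 13.6, Krt18 at 12.8, Krt8 at 12.4 and Upk3b at 10.8, while Msln had 6.31, Cdh1 3.48, Krt7 2.10 and Lrrn4 1.96. With the longest coding transcript as the length, the wild-type order changed: Krt19 (11.9) and Upk1b (11.2) passed Krt8 (10.6), Msln passed Upk3b (7.21 and 7.02) and Krt7 passed Cdh1 (3.32 and 3.03). The order among the highest 4 genes and within these pairs therefore rests on the gene model. Per kilobase of exons, Krt8 stood at 0.87 of Krt18 in the wild type; the knockout value was 0.97.

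Other genes of the surface epithelium and mesothelium, several of which granulosa or stromal cells make as well, went in both directions. Of 11 listed genes 10 reached 1 CPM, 4 had an interval above 0 and 1 below, and their median log2 ratio was 0.08. The retinoic acid-synthesising enzyme Aldh1a2, which stromal cells also make, was highest, with 1911 wild-type and 3242 knockout counts (log2 ratio 0.77, 0.69 to 0.85). The membrane glycoprotein Gpm6a had 588 and 708 counts (log2 ratio 0.28, 0.12 to 0.44). The secreted Wnt pathway activator Rspo1 had 226 and 272 (log2 ratio 0.27, 0.02 to 0.54), and podoplanin (Pdpn) 1635 and 1811 (log2 ratio 0.16, 0.06 to 0.25). The transcription factor Wt1, also a granulosa cell gene, had 2856 and 2925 counts, which gave a log2 ratio of 0.04 (-0.03 to 0.12). Lgr5, a receptor for R-spondins, was lower, with 1110 and 879 counts (log2 ratio -0.33, -0.46 to -0.20). The calretinin gene Calb2, a mesothelial marker below 1 CPM, had 15 wild-type and 0 knockout counts. The interval of the Calb2 log2 ratio had an upper bound of -1.83 and, with 0 knockout counts, no lower bound.

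Genes listed as linkers of keratin filaments went in both directions. Of 6 genes, 3 had an interval above 0 and 1 below, with a median log2 ratio of 0.21. The highest were epiplakin (Eppk1), with 68 and 179 counts, giving a log2 ratio of 1.40 (0.99 to 1.83), and periplakin (Ppl), with 437 and 826 counts and one of 0.93 (0.76 to 1.10). The linker plectin (Plec) had 7481 and 7726 counts (log2 ratio 0.05, 0.01 to 0.10). Desmoplakin (Dsp), the main keratin anchor of desmosomes, was lower, with 3542 and 2477 counts, giving a log2 ratio of -0.51 (-0.58 to -0.43).

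The cytoplasmic partners of cadherins, which most ovarian cells make, were 6 genes of median log2 ratio -0.10, with 1 interval above 0 and 4 below. Plakoglobin (Jup) had 2156 and 1622 counts, giving a log2 ratio of -0.40 (-0.50 to -0.31), and beta-catenin (Ctnnb1) 18517 and 18853 counts and one of 0.03 (0.00 to 0.06). Of 6 measured repressors of Cdh1, 2 had an interval below 0 and none above, with a median of -0.06. Snai1 had 321 and 238 counts, which gave a log2 ratio of -0.42 (-0.67 to -0.18), and Tcf3 2495 and 2098 (log2 ratio -0.24, -0.33 to -0.16), while Zeb2, with the most counts, had 12994 and 12942 (log2 ratio 0.00, -0.03 to 0.04).

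General epithelial genes went in both directions too, and most intervals spanned 0. Of 21 junction and regulator genes 15 reached 1 CPM, with 2 intervals above 0, 2 below and 11 spanning it. Their median log2 ratio was 0.01, was 0 under median-of-ratios scaling and turned negative with a minimum of 5 CPM. The adhesion protein Epcam had 456 and 589 counts, which gave a log2 ratio of 0.38 (0.20 to 0.56), and the membrane protease St14 87 and 118 (log2 ratio 0.45, 0.04 to 0.86). The splicing factor Esrp1 had 322 and 259 counts (log2 ratio -0.31, -0.55 to -0.07), and the tricellular junction gene Marveld2 169 and 120 (log2 ratio -0.48, -0.84 to -0.14). Cingulin (Cgn) had 545 and 541 counts, and Pkp2 581 and 634.

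**Figure D4:**
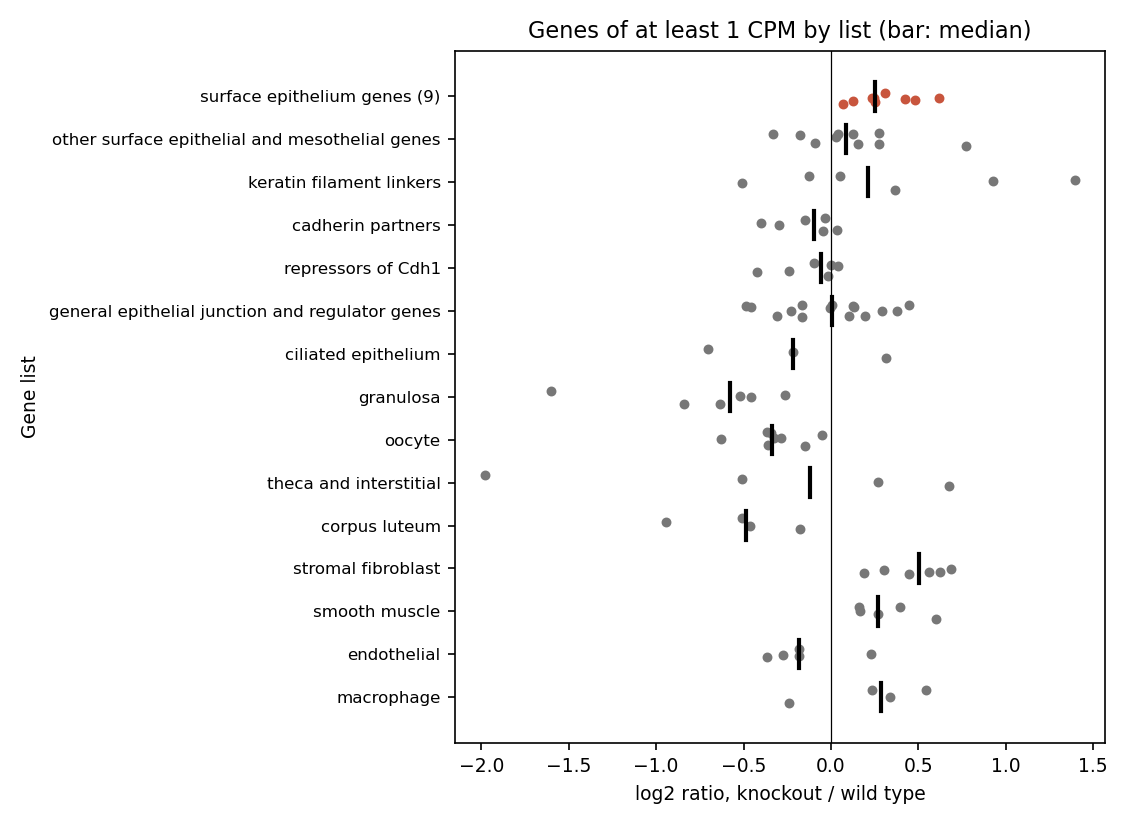
Log2 ratio of knockout to wild type (horizontal axis) for each gene of at least 1 CPM (points) in the lists with 3 or more such genes, with the list's median as a bar. The 9 surface epithelium genes (red) have a median of 0.25, stromal fibroblast markers one of 0.50 and granulosa markers one of -0.58.

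Markers of other ovarian cells also differed between the libraries, and their part in the values above was not tested. All 6 stromal fibroblast markers had an interval above 0, with a summed wild-type level of 2781 CPM and knockout level of 3911 CPM, 1.41-fold higher, and Col3a1 had the most counts. All 5 smooth muscle markers were above 0 as well, summing to 1358 and 1696 CPM, and 3 of 4 macrophage markers, summing to 269.1 and 337.1 CPM. The 6 granulosa markers all had intervals below 0, with sums of 604.3 and 404.1 CPM. Oocyte markers summed to 335.3 and 268.3 CPM, with 6 of 8 intervals below 0, and corpus luteum markers to 2646 and 2110 CPM, with 4 of 4 below. Theca and interstitial markers went both ways, 2 above and 2 below, with sums of 3779 and 3944 CPM that Aldh1a1, at 2170 and 2620 CPM, dominated. In this list Cyp17a1 was below, with 11243 and 2834 counts (log2 ratio -1.98, -2.04 to -1.92), and Mgarp above, with 10668 and 16943. Lhcgr, with 15503 and 10830 counts and an interval below 0, is in both this list and the corpus luteum list. Endothelial markers had 1 interval above 0 and 4 below, with sums of 546.4 and 467.2 CPM. Of 5 adipocyte markers 2 reached 1 CPM, 1 above and 1 below.

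Oviduct epithelium, which also makes keratins and E-cadherin and can adhere to a dissected ovary, had markers of low level in both libraries. Its 5 secretory markers summed to 266 wild-type and 336 knockout counts, or 11.4 and 14.5 CPM, and 2 of them reached 1 CPM. Sox17, which endothelial cells make too, supplied 216 and 178 of these counts and went the other way from the sum. The oviduct glycoprotein gene Ovgp1, singled out after its values were seen, had 33 and 134 counts, which gave a log2 ratio of 2.01 (1.47 to 2.63). The oviduct transcription factors Pax8 and Pax2 had 9 and 9, and 3 and 2 counts, and Wnt7a 5 and 13. The 7 markers of ciliated cells summed to 18.1 and 14.2 CPM, with Tppp3 highest at 234 and 143 counts, the ciliary master regulator Foxj1 at 11 and 3 counts, and Dynlrb2 at 0 in both. The part of oviduct cells in the ratios of the keratins and Cdh1 was not tested.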

How the data were processed

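RNA from whole mouse ovaries was measured in 2 libraries, 1 wild type and 1 H19 knockout. The authors deposited whole-number counts per gene symbol. The tools STAR 2.5.0a, Cufflinks 2.2.1 and DESeq2 1.0.0 are listed with the mm10 build, per the submitters' processing notes, which give no roles. Per the labels' protocols the library kit was stranded. No source used here gives the counting tool or annotation. Whether the counts were rescaled and rounded before deposit is not known. Median-of-ratios scaling left them unscaled, and every whole number below 527 occurs among the wild-type counts, and below 937 among the knockout counts. A constant factor per library would cancel in the CPM and the ratios, because library sizes come from the same counts. The intervals take the values as read counts, so their widths would then be off, also in comparisons between genes.

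Libraries were scaled by TMM (edgeR 4.0.16) over all 24421 rows, 27 of which carry dates in place of symbols and stayed in the totals. A pseudocount of 0.5 entered the log2 ratios, and medians and calls use genes averaging 1 CPM or more. Exact intervals and conditional odds ratios came from scipy 1.17.1. Coordinates and lengths are from GENCODE M21, on the same build as mm10. The markers and lists were chosen with earlier results of these data known. The naming rule took the markers, H19, and up to 4 most abundant and 3 farthest from 0 per related list. It also took the most abundant gene of each marker list. Not all genes it took are printed, and other genes were named after their values were seen. On simulated Poisson counts for the knockout against the wild type, with 50 genes per size, the interval left out 1 for 94% of genes raised 1.5-fold. It did so for 88% of genes lowered by that factor, and it held the true ratio for 95.3% of 13728 unchanged genes. The simulation held no variation between animals or libraries, so it checks only how the interval handles counting error. Alternatives were total count, median-of-ratios (DESeq2 1.42.0) and upper quartile scaling, library sizes that leave out the top 10 genes, a pseudocount of 5, other minimum levels and other fold limits. The comparison with genes of the markers' own level and the transcript length were added after the data were seen.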

Additional observations from a re-analysis of the deposited data

How the results depend on the processing

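No paired analysis was possible because there was a single library of each genotype, so no replicate could be left out either. Under 4 other scalings, all 9 markers kept their direction, and each interval lay above 0 or spanned it as before. With a pseudocount of 5 the directions also held, but the intervals do not use the pseudocount and could not change. Over these settings the log2 ratio of Upk3b ranged from 0.61 to 0.64. The median of the markers ranged from 0.24 to 0.28 over 16 alternatives, including without each marker in turn. The count of markers with an interval wholly above the limit was 6 under other scalings and minimum levels, 1 with the limit at a log2 ratio of 0.32 and 0 at 2-fold, since these limits are stricter. The other minimum levels could not change this count or the markers' median, because every marker averaged 6.69 CPM or more. The median of the general epithelial list became 0 under median-of-ratios scaling and -0.00262 with a minimum of 5 CPM. Without a low count filter, 13.4% of all genes had an interval above 0 and 14.1% below, because genes of few counts were added. Depth limits Lrrn4 most, whose interval spanned 0.66 log2 units.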
